A study of Danio rerio with 10 samples.

Results

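MicroRNAs of sorted zebrafish neutrophils were set against those of whole embryos, to ask which microRNAs (miRNAs) are rich or poor in neutrophils at 3 days post fertilization. The comparison used 4 of the 10 libraries of the series: 1 library of neutrophils and 3 libraries of whole embryos. All are labelled as AB background and wild type, and the embryos came from transgenic lines. For the sorted cells GFP marked the neutrophils, and FACS, which sorts cells by fluorescence, was used to collect these. No treatment is given for these fish. The 3 whole-embryo libraries are replicates by their labels, and nothing states whether they came from separate clutches. The neutrophil library was labelled lyzC+, after the gene of the neutrophil lysozyme, and has no replicate, so every interval below covers counting error of that library alone and no test was run. A library of sorted keratinocytes (Krt4+, 1 library) is cited only where its counts touch a result. In bulk RNA of this kind, fewer cells of a type and less of a miRNA per cell cannot be told apart.

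A miRNA gene is transcribed as a longer RNA that holds 1 or several hairpins, each of which is cut to a short mature strand that guides the Argonaute complex to matching messenger RNAs and lowers their output. Several miRNAs mark a lineage so closely that they serve as signs of its presence. In vertebrates miR-223 marks myeloid cells and miR-142 marks blood cells of most kinds, whereas miR-203 and miR-205 mark skin and other epithelia, miR-9 and miR-124 the nervous system, and miR-144 and miR-451 red blood cells. In mouse and zebrafish, loss of miR-223 is known to make neutrophil responses stronger.

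The deposited table listed 431 miRNA hairpin entries with raw read counts, and levels are given as CPM, the count divided by the sum of all entries of its library and multiplied by 1000000. An entry was compared when the neutrophil library or the whole-embryo mean reached 10 CPM, and 10 of the entries so chosen reached it through the neutrophil level alone. Depth differed widely, with 20864 counts in the neutrophil library and 1170260, 1163747 and 867672 counts in the whole-embryo libraries, here called replicate 1, a and b because the header of the last pair gives no replicate number. In the neutrophil library 1 count was worth 47.9 CPM, and 0 counts leave room for a level of up to 143.8 CPM, equal to 3 counts. Of the compared entries, 50 had 0 neutrophil counts, 55 had 1 to 3 counts and 74 had at least 10 counts. The whole-embryo libraries lay close to each other for most entries: over the 129 entries with a mean of at least 100 CPM, the highest library exceeded the lowest by a median factor of 1.29, with a 95th percentile of 2.08.

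An entry was called higher when the lower bound of the exact 95% Poisson interval of its neutrophil count lay at least 4-fold above the whole-embryo mean and above all 3 whole-embryo libraries. It was called lower when the upper bound lay at least 4-fold under that mean and under all 3 libraries. By this rule 17 entries were called higher, 8.25% of those compared, 9 were called lower, 4.37% of those compared, and 180 were not called. The 17 higher entries together made up 19.7% of the neutrophil library and 0.397% of whole embryo, and the 9 lower entries made up 1.69% of the neutrophil library and 11.5% of whole embryo. A weaker description counts an entry as apart when its interval lies wholly above or below all 3 whole-embryo libraries, whatever the fold: 45 entries (21.8%) were above the range, 44 (21.4%) below it and 117 within it.

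**Figure D1:**
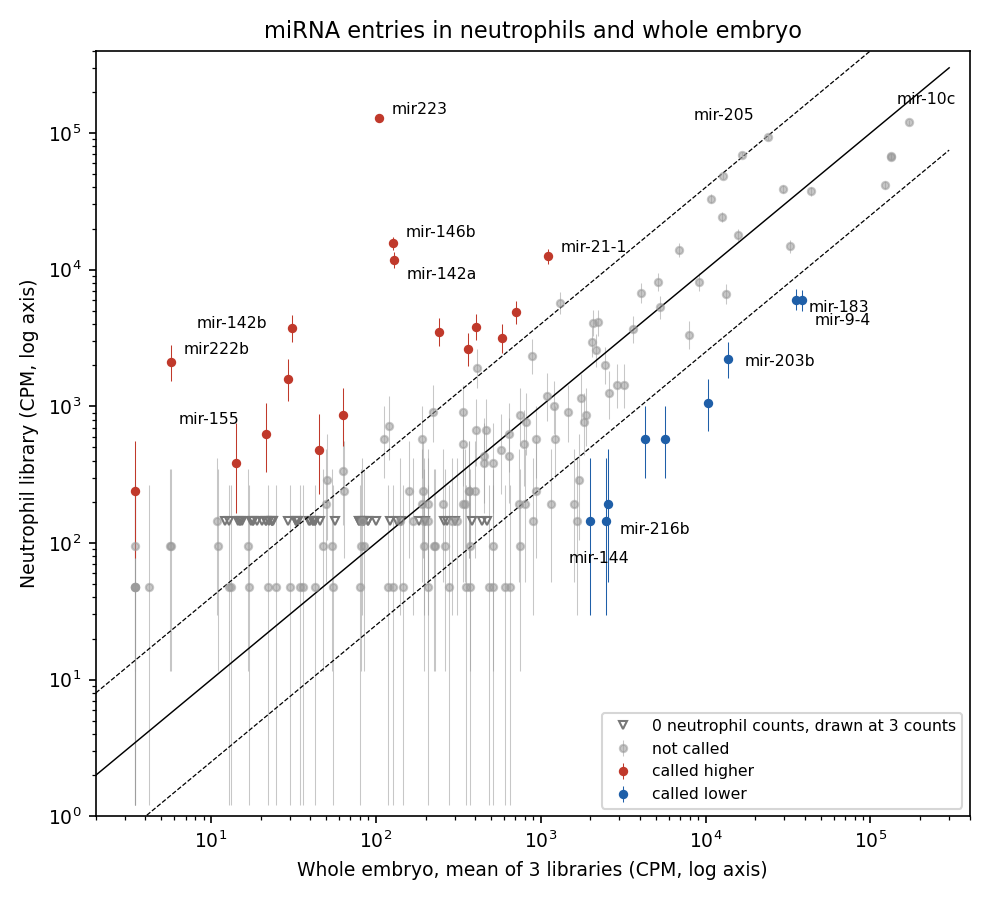
Each point is a compared miRNA entry, with the mean CPM of the 3 whole-embryo libraries on the horizontal axis and the CPM of the neutrophil library on the vertical axis, both logarithmic. Vertical bars are exact 95% Poisson intervals, the solid line marks equal levels and the dashed lines mark 4-fold; red entries were called higher, blue entries lower, open triangles had 0 neutrophil counts and are drawn at 3 counts, and whole-embryo means under 3.46 CPM are drawn at that limit. The entry mir223 stands farthest above the line, at 129266 CPM against a mean of 104 CPM.

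The markers of the labelled cell type, mir223, dre-mir-142a and dre-mir-146b, were all called higher. In the neutrophil library no entry had more reads than mir223 (chromosome 5, 22234407 to 22234505, minus strand, GRCz11), with 2697 counts. It held 129266 CPM there (95% interval 124433 to 134238), against 94.0, 124.6 and 93.4 CPM in the whole-embryo libraries. Its level was 1243-fold the whole-embryo mean (interval 1197 to 1291), and it moved to the top rank by read count. The keratinocyte library held 20 counts of it, or 232 CPM, above every whole-embryo library.

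The miR-142 hairpins, a pair of copies on chromosomes 5 and 15, were both among the highest ratios. With 246 counts, dre-mir-142a held 11791 CPM (10363 to 13360) in neutrophils and 149, 119 and 120 CPM in whole embryo, a ratio of 91.4 (80.3 to 104). With 78 counts, dre-mir-142b held 3738 CPM (2955 to 4666) against 32.5, 34.4 and 26.5 CPM, a ratio of 120 (94.97 to 150). The intervals of these ratios overlap, so the copies could not be told apart in how far they stood above whole embryo, although dre-mir-142a had the higher level. The keratinocyte library held 66 counts of dre-mir-142a, or 765 CPM, above the whole-embryo libraries, and 1 count of dre-mir-142b.

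The miR-146 family, which in mammals is induced by NF-kB and damps Toll-like receptor signalling, showed unlike ratios for its members. The entry dre-mir-146b (chromosome 21, 41639979 to 41640058) had 326 neutrophil counts, or 15625 CPM (13975 to 17417), against 151, 130 and 98.0 CPM in whole embryo, a ratio of 123.7 (111 to 137.9). The entry dre-mir-146a (chromosome 13, 11822170 to 11822283) had 102 counts, or 4889 CPM (3986 to 5935), against 956, 669 and 500 CPM, a ratio of 6.90 (5.63 to 8.38). Whole embryo thus held more dre-mir-146a than dre-mir-146b, and the neutrophil library held them in the reverse order. The keratinocyte library had 5 counts of dre-mir-146b and 715 counts of dre-mir-146a, where dre-mir-146a made up 0.829% of the counts against 0.489% in the neutrophil library (0.399% to 0.593%).

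The other 2 members of the myeloid list were rare. With 13 counts, dre-mir-155, which in mammals is induced on activation of immune cells, held 623 CPM (332 to 1065) against 23.9, 29.2 and 11.5 CPM in whole embryo, a ratio of 28.9 (15.4 to 49.4). With 6 counts, mir150, best known from lymphocytes of mouse and human, held 288 CPM (105.5 to 626) against 47.0, 43.0 and 62.2 CPM. Its interval lay above the whole-embryo range, but its ratio of 5.67 (2.08 to 12.3) did not clear the 4-fold limit. All 7 entries of the list were thus above the range and 6 were called higher, beside 45 above the range and 17 called among all compared entries. Summed, the list made up 16.6% of the neutrophil library (16.1% to 17.1%) and 0.117% ± 0.0272 of whole embryo (SD, n = 3).

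**Figure D2:**
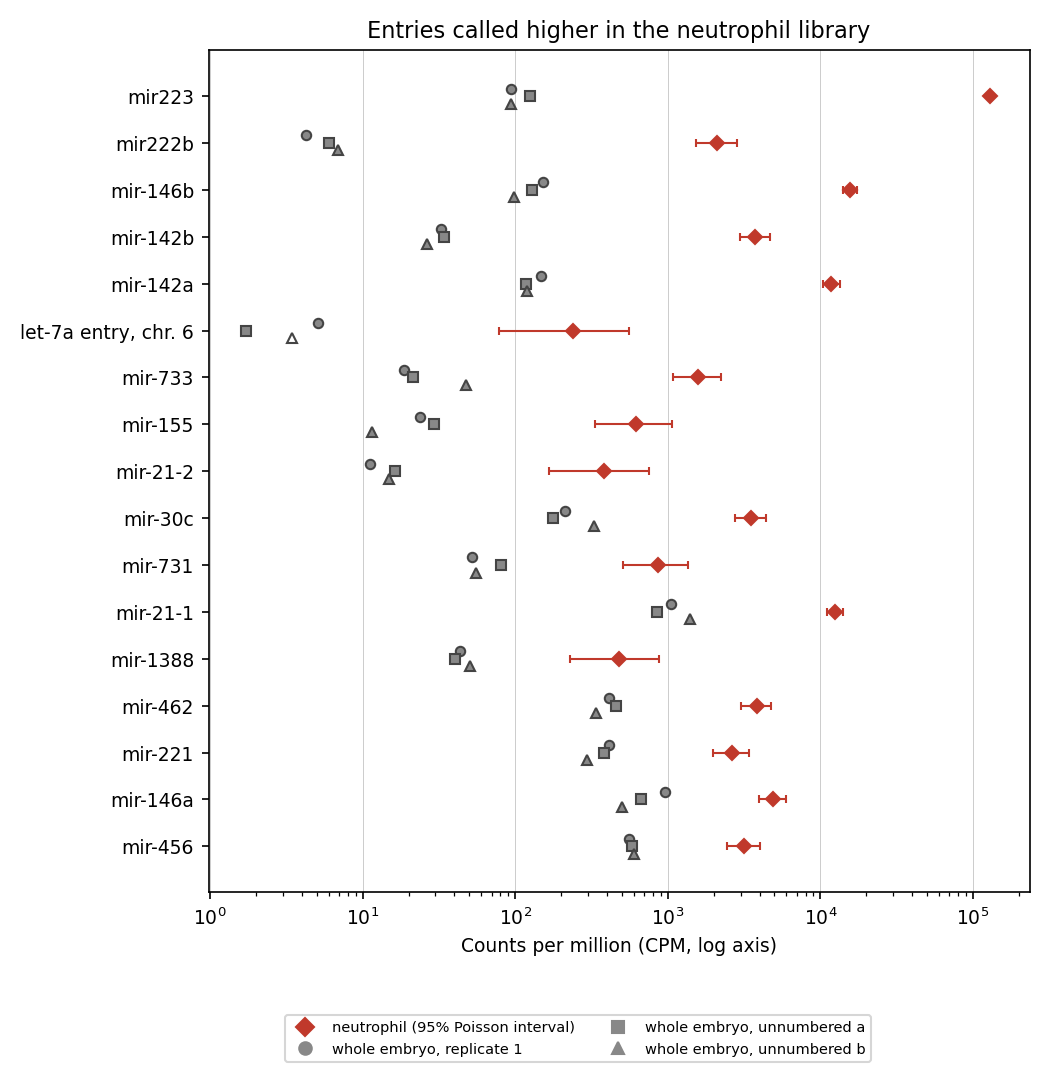
CPM on a logarithmic axis of the 17 entries called higher, in the neutrophil library with its 95% Poisson interval and in the 3 whole-embryo libraries. Open triangles mark a count of 0, drawn at 3 counts of that library. The neutrophil point of each entry lies to the right of all its whole-embryo points.

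The family of miR-221 and miR-222, which in mammals represses the cell cycle inhibitor p27 and the receptor Kit, gave the second highest ratio of all entries. The entry mir222b (chromosome 21, 44568180 to 44568266) had 44 neutrophil counts and 5, 7 and 6 counts in the far deeper whole-embryo libraries. Its level of 2109 CPM (1532 to 2831) stood against 4.27, 6.02 and 6.92 CPM, a ratio of 368 (267 to 494), and the keratinocyte library had 0 counts. With a whole-embryo mean of 5.73 CPM, under the 10 CPM filter, mir222b was compared through its neutrophil level alone. Such an entry can be called higher but not lower. The other family members sit beside each other on chromosome 9 and were richer in whole embryo to begin with. The entry dre-mir-221 had 55 counts, or 2636 CPM (1986 to 3431), against 414, 382 and 295 CPM, a ratio of 7.25 (5.46 to 9.44), and the keratinocyte library held 1692 CPM of it. The entry dre-mir-222a, at 508 counts the most abundant of the family, held 24348 CPM (22277 to 26560) against 11122, 11108 and 15293 CPM, and its ratio of 1.95 (1.78 to 2.12) was above the range without being called. All 3 members were above the whole-embryo range and 2 of 3 were called higher, beside 21.8% and 8.25% of all compared entries. These shares rest on 3 entries, and 1 of the calls is mir222b.

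Both miR-21 copies were called higher. This miRNA is found in many tissues and in mammals rises with inflammation and in tumours. The entry dre-mir-21-1 (chromosome 10, 28198894 to 28199041) had 261 counts, or 12510 CPM (11038 to 14123), against 1056, 849 and 1403 CPM in whole embryo, a ratio of 11.3 (10.01 to 12.8). The entry dre-mir-21-2 on chromosome 15 had 8 counts, or 383 CPM (166 to 756), against 11.1, 16.3 and 14.98 CPM, a ratio of 27.1 (11.7 to 53.4). Copies of a mature miRNA can share reads, and how such reads were assigned is not stated, so the split between the copies is uncertain; their sum was 1.29% of the neutrophil library (1.14% to 1.45%) and 0.112% ± 0.0279 of whole embryo (SD, n = 3).

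A hairpin pair on chromosome 8, dre-mir-462 and dre-mir-731, was called higher as a whole. These neighbours are known from teleost fish, where viral infection and interferon induce them. The entry dre-mir-462 (26082308 to 26082409) had 80 counts, or 3834 CPM (3040 to 4772), against 414, 459 and 339 CPM, a ratio of 9.50 (7.53 to 11.8). The entry dre-mir-731 (26082534 to 26082623) had 18 counts, or 863 CPM (511 to 1363), against 52.1, 80.8 and 55.3 CPM, a ratio of 13.8 (8.15 to 21.7). Both neutrophil intervals lay above every whole-embryo library, and the intervals of the ratios overlap.

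In the miR-30 family dre-mir-30c stood out, with 73 counts, or 3499 CPM (2743 to 4399), against 213, 178 and 328 CPM, a ratio of 14.6 (11.4 to 18.4). Its relative dre-mir-30d was far more abundant, at 1017 counts, and had a ratio of 3.80 (3.57 to 4.04), above the range but not called. The entry dre-mir-30a went the other way, with 2 counts and a ratio of 0.187 (0.0227 to 0.676), below the range, and dre-mir-30b lay within it. The sum of the family was 5.32% of the neutrophil library (5.02% to 5.63%) and 1.43% ± 0.152 of whole embryo (SD, n = 3). The high level of dre-mir-30c was not limited to neutrophils. The keratinocyte library held 1414 CPM of dre-mir-30c, also above every whole-embryo library, and 4752 CPM of dre-mir-30d, below each of them.

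The remaining 4 entries called higher are less well described or rest on few reads. With 66 counts, dre-mir-456, a hairpin in an intron of ttc27 on chromosome 17, held 3163 CPM (2447 to 4025) against 559, 585 and 603 CPM, a ratio of 5.43 (4.20 to 6.91) that cleared the limit by the least of all higher calls. With 10 counts, dre-mir-1388 held 479 CPM (230 to 881) against 43.6, 40.4 and 50.7 CPM, a ratio of 10.7 (5.12 to 19.6). The entry dre-mir-733 had 33 counts, or 1582 CPM (1089 to 2221), against 18.8, 21.5 and 47.3 CPM, a ratio of 54.2 (37.3 to 76.1). Its span on chromosome 14 (2406978 to 2407072) lies inside an exon of vtrna4, a vault RNA gene on the same strand. The keratinocyte library held 99 counts of dre-mir-733, or 1147 CPM, within the neutrophil interval and above every whole-embryo library. A let-7a entry on chromosome 6 (54507105 to 54507178) had 5 neutrophil counts, or 240 CPM (77.8 to 559), and 6, 2 and 0 counts in whole embryo. Because that mean is under 3 counts per library, only a bound can be given, at least 69.3-fold with an interval of 22.5 to 162 from the neutrophil count; other let-7a copies exist and the assignment of shared reads is not stated. Summed over the let-7a copies, the ratio was 3.33 (1.598 to 6.13) and the call was lost. The chromosome 6 entry, with a whole-embryo mean of 2.28 CPM, was also compared through its neutrophil level alone.

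Among the 9 entries called lower, 4 belonged to the neural and retinal list. That list had 30 entries compared, and of all compared entries 4.37% were called lower. The neural calls were those of miR-9, a miRNA of neural progenitors, and miR-153, a miRNA of neurons. The entry dre-mir-9-4 (chromosome 22, 18254769 to 18254855), the sixth by read count in whole embryo, had 41003, 36293 and 38753 CPM there and 5991 CPM (4987 to 7138) in neutrophils, 6.46-fold lower (5.42 to 7.76). The entry dre-mir-9-7 (chromosome 2, 59102169 to 59102252) had 11039, 9908 and 10128 CPM against 1054 CPM (661 to 1596) from 22 counts, 9.82-fold lower (6.49 to 15.7). For both copies the neutrophil interval lay far under whole-embryo libraries that were close to each other.

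The miR-153 hairpins were scarcer still in neutrophils. The entry dre-mir-153c had 6198, 5548 and 5265 CPM in whole embryo and 575 CPM (297 to 1005) in neutrophils from 12 counts, 9.86-fold lower (5.64 to 19.1). The entry dre-mir-153a had 3008, 2495 and 1987 CPM and 143.8 CPM (29.7 to 420) from 3 counts, 17.4-fold lower (5.94 to 84.2), the largest fold among the lower calls, with a wide interval. The third, dre-mir-153b, had 6 counts and a ratio of 0.168 (0.0615 to 0.365), below the range but not called. Of 30 neural entries compared, 8 were below the range, a share near the 21.4% of all compared entries, none was above it and 13 had 0 neutrophil counts. Abundant members of the list that lay within the range were dre-mir-181a-2 with 111 counts and a log2 ratio of 0.01, and dre-mir-181c with 169 counts and -0.17; miR-181 is also made by blood cells in mouse. The nervous system marker miR-124 could not be judged, because its compared copies had 0 and 1 neutrophil counts and means of 41.3 and 79.5 CPM in whole embryo.

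The sensory list holds dre-mir-182, mir96 and dre-mir-183, known from hair cells and photoreceptors and encoded in a single cluster on chromosome 4. All were below the whole-embryo range, to unlike degrees, beside 21.4% of all compared entries. The entry dre-mir-183 had 42946, 42802 and 20316 CPM in whole embryo and 6039 CPM (5031 to 7190) in neutrophils, 5.85-fold lower (4.92 to 7.03). The entry mir96 had 658, 747 and 408 CPM and a single neutrophil count, a ratio of 0.0793 (0.00201 to 0.442). The entry dre-mir-182 had 138737, 151143 and 111901 CPM and 66766 CPM (63305 to 70366) from 1393 counts, 2.01-fold lower (1.90 to 2.12), and was the second entry of whole embryo and the sixth of the neutrophil library by read count. It was the most abundant entry of the keratinocyte library, with 437986 CPM, or 43.8% of the counts, above every whole-embryo library. That library held 41088 CPM of dre-mir-183, within the whole-embryo values, and 41 counts of mir96. This high dre-mir-182 level was seen in 1 keratinocyte library without a replicate. Which cells of that library and of whole embryo gave the dre-mir-182 reads was not tested.

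Erythroid and pancreatic miRNAs were near the limit of detection in neutrophils. The entry dre-mir-144, which in zebrafish acts on globin synthesis in red blood cells, had 3 counts, or 143.8 CPM (29.7 to 420), against 1740, 2139 and 2073 CPM in whole embryo, 13.8-fold lower (4.72 to 66.9). Its cluster neighbour dre-mir-451 had 0 counts, which allows up to 143.8 CPM, against 279, 359 and 260 CPM. The entry dre-mir-216b, a miRNA of the exocrine pancreas, had 4 counts, or 191.7 CPM (52.2 to 491), against 2859, 2348 and 2412 CPM, 13.2-fold lower (5.17 to 48.6). Its neighbours dre-mir-216a and dre-mir-217 had 0 counts and were below the whole-embryo range without being called, since their means of 473 and 269 CPM were too low for a count of 0 to clear the 4-fold limit.

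**Figure D3:**
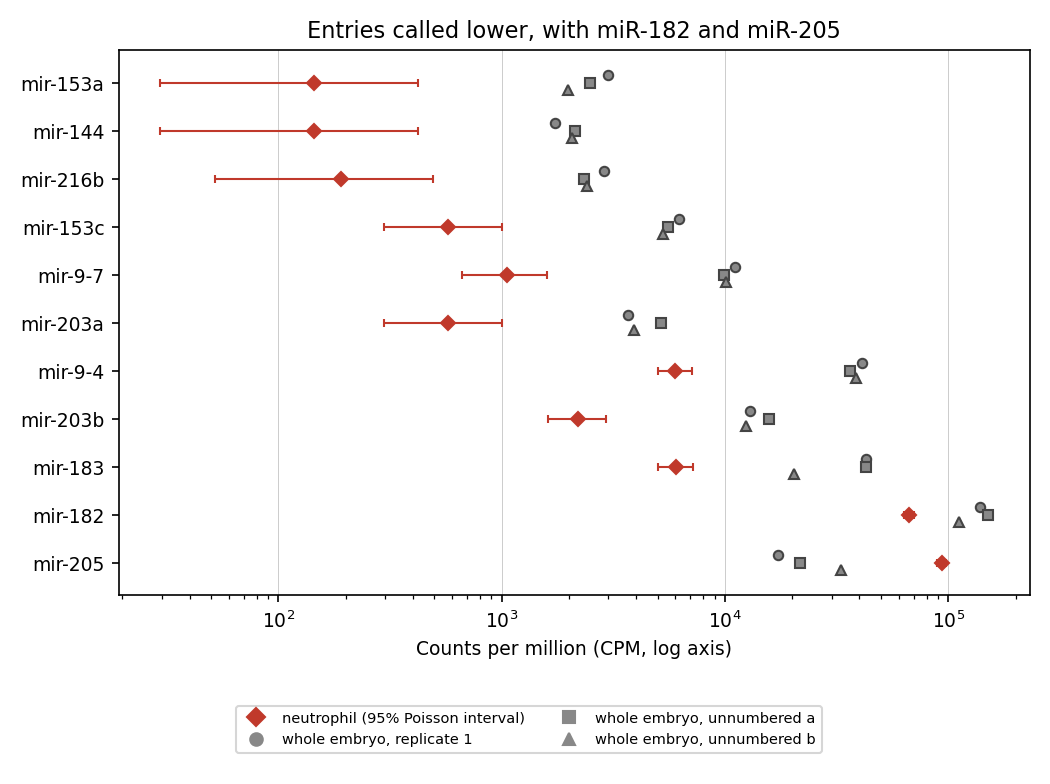
CPM on a logarithmic axis of the 9 entries called lower, followed by dre-mir-182 and dre-mir-205, which were not called. Values are those of the neutrophil library with its 95% Poisson interval and of the 3 whole-embryo libraries. Each neutrophil point lies to the left of its whole-embryo points, except that of dre-mir-205, which lies to the right. The intervals widen for dre-mir-153a, dre-mir-144 and dre-mir-216b, which rest on 3, 3 and 4 counts.

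The epithelial list split. The entry dre-mir-203b, which in mouse skin promotes the exit from proliferation, had 12876, 15680 and 12357 CPM in whole embryo and 2205 CPM (1614 to 2941) in neutrophils from 46 counts, 6.19-fold lower (4.64 to 8.45). The entry dre-mir-203a had 3693, 5178 and 3928 CPM and 575 CPM (297 to 1005) from 12 counts, 7.42-fold lower (4.25 to 14.4); this was the call nearest to the limit among the lower ones, and without whole-embryo library a its lower bound was 3.79-fold and the call was lost. The miR-200 family, which in mammals holds epithelial cells in their state by repressing the ZEB factors, was below the whole-embryo range in 5 of its 6 compared entries. These had 1 to 30 counts each, and the share over all compared entries was 21.4%. The exception, dre-mir-429b, had 0 counts and a whole-embryo mean of 78.9 CPM, under the neutrophil limit.

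The marker of stratified epithelium, dre-mir-205, went against the rest of its list. It had 1950 neutrophil counts, or 93462 CPM (89360 to 97705), the third entry by read count, against 17271, 21688 and 32958 CPM in whole embryo, a ratio of 3.90 (3.73 to 4.08). The ratio was above the range and not called; without whole-embryo library b, the highest of the 3, it was 4.798 (4.59 to 5.02) and passed. The other 8 epithelial entries together made up 0.532% of the neutrophil library, 1.88% of the keratinocyte library and 2.54% ± 0.378 of whole embryo (SD, n = 3). The ratio of dre-mir-205 counts to dre-mir-203b counts was 1.34, 1.38 and 2.67 in the whole-embryo libraries, 5.85 in the keratinocyte library and 42.4 in the neutrophil library (31.7 to 58.1). The share of dre-mir-205 was 4.42% in the keratinocyte library against 9.35% in the neutrophil library. Of the other 8 epithelial entries, 7 stood below the whole-embryo range, beside 21.4% of all compared entries. Whether RNA of other cells contributed to dre-mir-205 was not tested.

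Markers of other tissues gave no call. The endothelial entries dre-mir-126a and dre-mir-126b had 25 and 3 counts and lay within the whole-embryo range, with ratios of 1.105 (0.715 to 1.63) and 0.692 (0.143 to 2.02). Of 8 muscle entries, dre-mir-133b alone was below the range, at 0 counts against 411, 578 and 338 CPM, and the others had at most 2 counts. Of 4 mesenchymal entries compared, 2 were below the range, beside 21.4% of all compared entries. Of these, dre-mir-143, a miRNA of smooth muscle, had 310 counts and a ratio of 0.456 (0.407 to 0.510). The other, dre-mir-199-3, had 5 counts and a ratio of 0.257 (0.0835 to 0.600). The cluster neighbour of dre-mir-143, dre-mir-145, had 4 counts and lay within the range at 1.01 (0.274 to 2.58). The cartilage miRNA mir140 was above the range, with 292 counts and a ratio of 2.04 (1.81 to 2.29). The keratinocyte library held 1325 counts of mir140, from a total of 86279 against 20864 in the neutrophil library.

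Of the 10 most abundant whole-embryo entries, 7 were also among the 10 most abundant of the neutrophil library. These ranks are of read counts per entry, with no correction for length. The miR-10 family, whose hairpins lie in the Hox gene clusters, headed whole embryo. Its entry dre-mir-10c was second in neutrophils, with 119440 CPM (114796 to 124224) against 160169, 159510 and 192864 CPM, 1.43-fold lower (1.38 to 1.49). The entry dre-mir-10d was 2.94-fold lower (2.76 to 3.15) and dre-mir-10a 1.95-fold lower (1.85 to 2.06). The Hox cluster list joined the miR-10 and miR-196 entries by their place in the genome. Together these took 23.7% of the neutrophil library (23.1% to 24.3%) and 43.2% ± 1.72 of whole embryo (SD, n = 3). Entries of this list did not all stand alike. The entries mir196b, with 49 counts, and mir196d, with 19 counts, were above the range at ratios of 2.67 (1.98 to 3.53) and 2.69 (1.62 to 4.20), whereas mir196c, mir196a-2, dre-mir-10b-1 and dre-mir-10b-2 lay within it.

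Several abundant entries stood above the range at lower folds. The entry dre-mir-92a-1, of the mir-17-92 cluster known from proliferating cells, was the fourth entry of the neutrophil library with 1438 counts, or 68922 CPM (65406 to 72579), against 11645, 13435 and 24763 CPM. Its ratio of 4.15 (3.94 to 4.37) was the nearest to a higher call, and without whole-embryo library b it was 5.50 (5.22 to 5.79) and passed. The entry dre-mir-15c, with 119 counts and a ratio of 4.35 (3.60 to 5.21), likewise passed without library b, at 4.996 (4.14 to 5.98). The entry dre-mir-25 had 692 counts and a ratio of 3.10 (2.87 to 3.34). The entry dre-mir-192, of liver, gut and kidney, had 808 counts and 38727 CPM (36102 to 41492) against 33815, 35321 and 19848 CPM, just above the range, and dre-mir-92b with 780 counts lay within it. On the lower side the entry nearest to a call was dre-mir-725, with 3 counts and 11.5-fold lower (3.93 to 55.6), and it too passed without library b.

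The lists can be read against the median of all compared entries, whose log2 ratio of CPM + 1 was -0.71. With counts of 0 set to 3, for which no 1 was added and no ratio was let above 0, the median was 0. Entries at 0 counts with a whole-embryo mean under 143.8 CPM were thus set to exactly 0, and this median fell among them. The myeloid list had a median of 6.50, miR-21 of 4.08 and the list of miR-221 and miR-222 of 2.85. The last list includes mir222b, which was compared through its neutrophil level alone. The let-7 list, whose members time differentiation, had a median of 1.93 over 11 entries. Of these, 3 were above the range and 1 was called, shares near the 21.8% and 8.25% of all compared entries. Most rest on few reads, and the list as a whole had 37 counts. The chromosome 6 entry and dre-let-7e, which had 1 count, were compared through their neutrophil level alone. Such entries can raise the median but not lower it. With no filter on low values the let-7 median was -0.99. The miR-15/16 list had 0.79 over 6 entries, with 3 above the range and none below, beside 21.8% and 21.4% of all compared entries. On the other side the epithelial list had -2.63, the sensory list -2.55 and the neural list -3.30, the last of which was -0.09 with counts of 0 set to 3. The pancreatic list, at -3.72 over 6 entries, was -0.74 by the same step, and the 2 erythroid entries went from -6.005 to -2.42. The miR-430 list, which clears maternal messenger RNA early in zebrafish development, had 55 entries listed, 1 of them detected in any library and none compared.

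**Figure D4:**
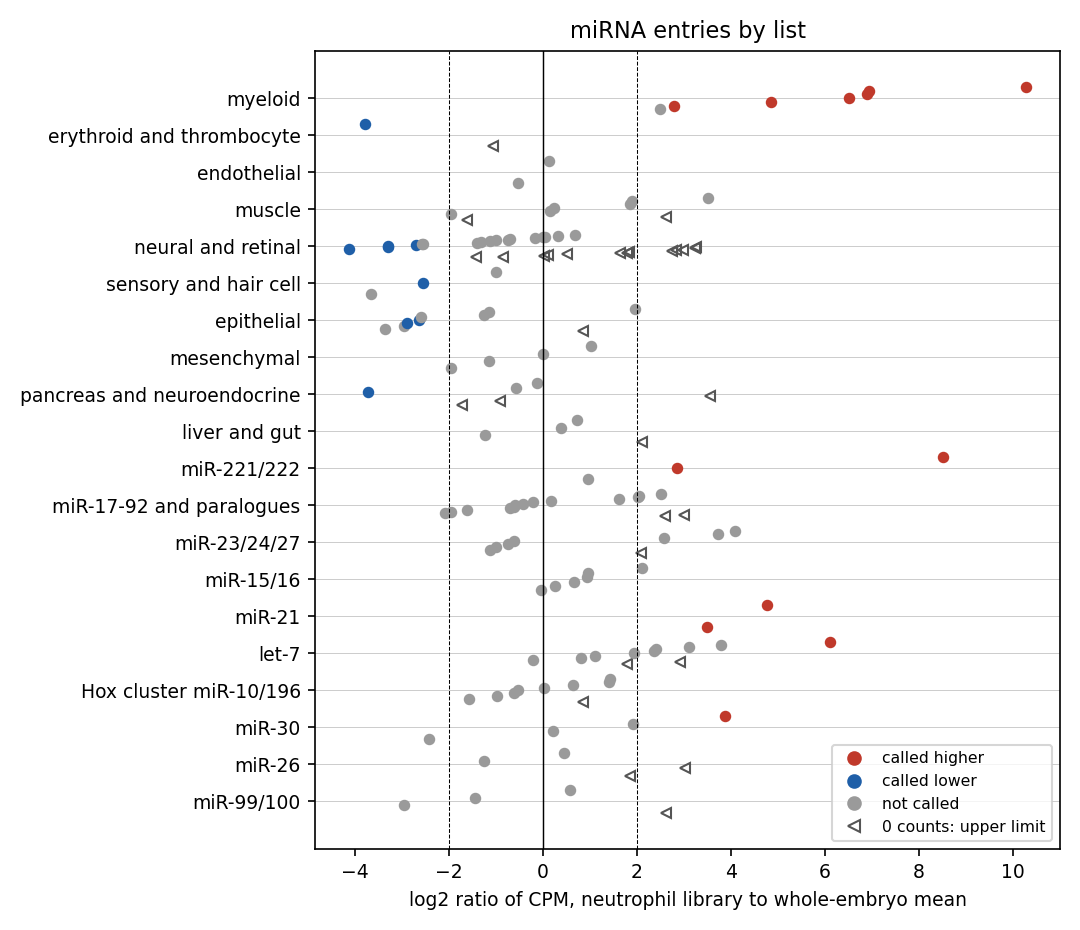
Log2 ratio of CPM between the neutrophil library and the whole-embryo mean for each compared entry, in rows by list. Red entries were called higher, blue entries lower, grey entries neither, and open triangles are upper limits for counts of 0. The myeloid row lies wholly to the right of 0. In the epithelial row dre-mir-205 and the upper limit of dre-mir-429b lie to the right of 0 and the others to the left.

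Hairpins that lie close together can be cut from a shared transcript, and 78 of the compared entries fell into 32 clusters with neighbours at most 10000 bases apart on the same strand. No cluster held both a higher and a lower call. A higher call was held by 2 clusters and a lower call by 3. Calls were few, at 8.25% higher and 4.37% lower over all compared entries, so the lack of a cluster with both carries little weight. Over all compared entries, 21.8% were above the range and 21.4% below it. All members were above the whole-embryo range in 3 clusters, dre-mir-462 with dre-mir-731, dre-mir-221 with dre-mir-222a, and dre-mir-23a-1 with dre-mir-27e. All members were below it in 4 clusters, those of miR-216 with miR-217, of miR-200a and miR-200b with miR-429, of miR-96, miR-182 and miR-183, and of miR-144 with miR-451. In 2 clusters members stood on both sides. The first, in an intron of mcm7 on chromosome 14, had dre-mir-25 above the range and dre-mir-93 below it, with 4 counts and a ratio of 0.260 (0.0709 to 0.666). The second, on chromosome 10 in an intron of ska2, had dre-mir-130a above the range at 1.46 (1.12 to 1.87) and dre-mir-454a below it at 0.471 (0.243 to 0.822).

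**Figure D5:**
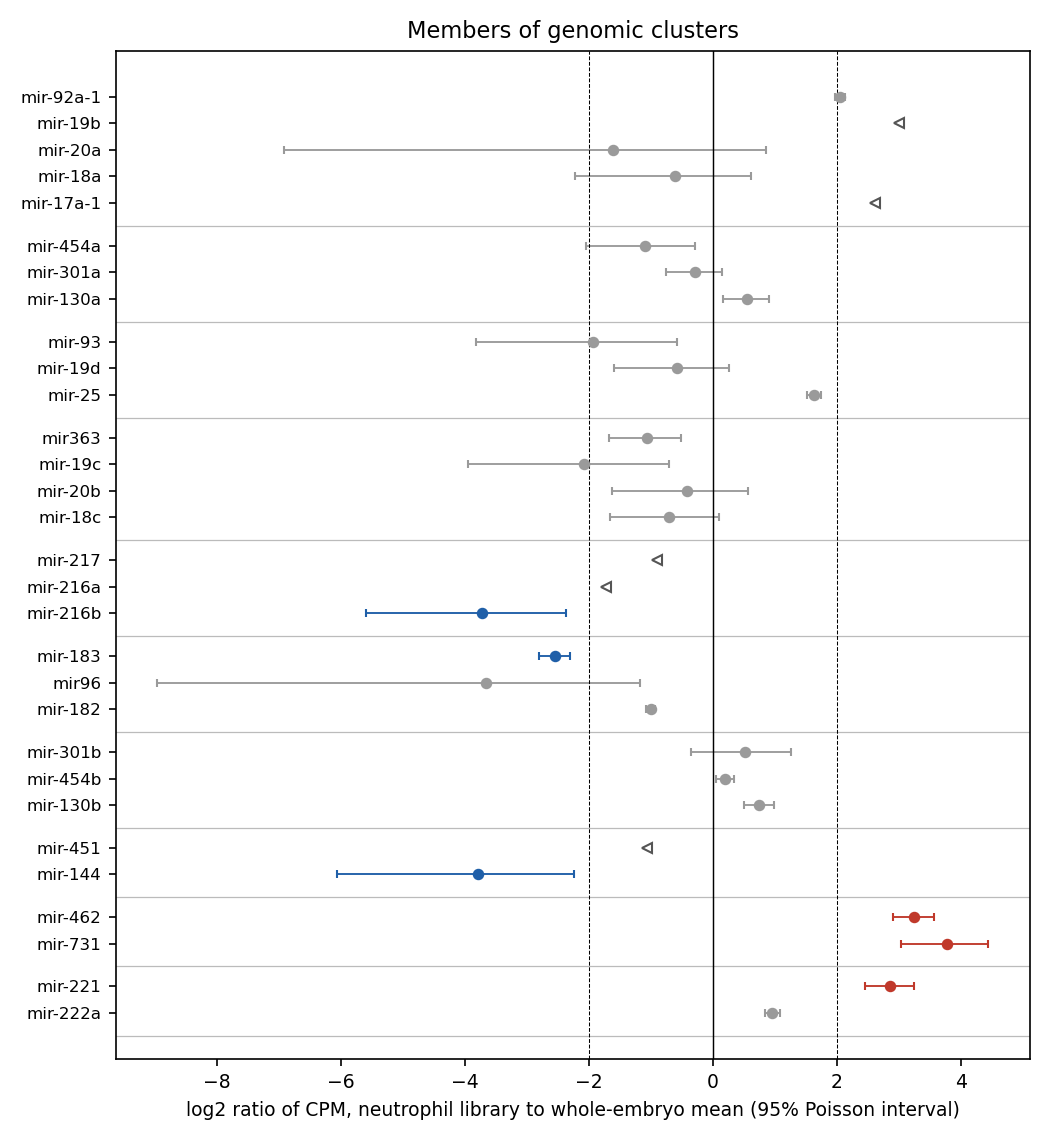
Log2 ratio of CPM, with no constant added, of the neutrophil library to the whole-embryo mean for the members of 10 genomic clusters, with 95% Poisson intervals; open triangles are upper limits for counts of 0 and dashed lines mark 4-fold. In the mir-17-92 cluster dre-mir-92a-1 is above the line of equal levels and dre-mir-18a and dre-mir-20a have intervals that cross it, while dre-mir-462 and dre-mir-731 lie together.

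Within some clusters the proportion of the members differed between whole embryo and both sorted libraries; these pairs were chosen after their values were seen. Counts of dre-mir-25 exceeded those of dre-mir-93 by 13.8, 13.4 and 16.8 in the whole-embryo libraries, by 173 in neutrophils (67.3 to 637) and by 158 in keratinocytes (83.1 to 347), with exact binomial intervals that are wide because dre-mir-93 had 4 neutrophil counts. Counts of dre-mir-92a-1 exceeded those of dre-mir-18a by 31.3, 34.7 and 73.8 in whole embryo, by 288 in neutrophils (123 to 887) and by 331 in keratinocytes (113 to 1606), where dre-mir-18a had 5 and 3 counts. The ratio of dre-mir-182 to dre-mir-183 was 3.23, 3.53 and 5.51 in whole embryo, 11.1 in neutrophils (9.21 to 13.4) and 10.7 in keratinocytes (10.3 to 11.04). The ratio of dre-mir-222a to dre-mir-221 moved the other way, from 26.9, 29.05 and 51.8 to 9.24 in neutrophils (6.98 to 12.4) and 7.03 in keratinocytes (5.91 to 8.42). The ratio of dre-mir-462 to dre-mir-731 was 7.93, 5.68 and 6.12 in whole embryo, 4.44 in neutrophils (2.64 to 7.88) and 7.25 in keratinocytes (2.55 to 28.4). For dre-mir-143 to dre-mir-145 the ratio was 168.5, 158.8 and 192.6 in whole embryo. In neutrophils it was 77.5 (29.97 to 286.2), an interval that covers these values, and in keratinocytes 417.7 (219.8 to 914.1), above them. For this pair the sorted libraries lay on opposite sides of whole embryo, with intervals that overlap. What sorted cells share as a cell type and what sorting and low input do to a library cannot be told apart in these ratios.

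The messenger RNA tables of the series gave a further readout that the choice of entries did not use, in sorted neutrophils of other fish that carried a vector control (2 libraries, replicates 1 and 3). The neutrophil genes lyz and mpx had 325491 and 267100 counts and 181536 and 151284 counts in these libraries; of the epithelial genes, epcam and krt5 were at 0 counts in both and krt4 had 67 and 54. In them the hairpin genes themselves were listed, and 189 of the compared entries had the same start, end and strand there. Counts in both vector libraries were found for 21 of the 189 matched entries. These were 6 of 14 entries called higher, 1 of 9 called lower and 14 of 166 called neither. At least 10 counts in both were found for 7 matched entries, 3 of them called higher. Among the higher calls dre-mir-146a had 2 and 1 counts and dre-mir-21-2 had 1 and 2. Others, such as dre-mir-155, dre-mir-21-1, dre-mir-30c, dre-mir-221 and dre-mir-462, had 0 counts in both. The hairpin gene mir223 had 442 and 389 counts, the most of any matched hairpin. The gene mir142a stood at 12.9 and 10.5 CPM and mir142b at 7.28 and 6.61 CPM, while mir146b-1, at the place of dre-mir-146b, stood at 0.646 and 0.607 CPM, from 11 and 9 counts. The entry called lower with counts in both was mir144, with 4 and 3 counts. Among entries called neither, the most counts were those at dre-mir-199-3, with 26 and 15 counts, which overlaps dnm2a, so that its reads cannot be assigned to the hairpin.

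Genes with a hairpin inside their span on the same strand gave another view, for 42 entries in 38 genes. For dre-mir-25, dre-mir-93 and dre-mir-19d the host mcm7, part of the helicase that opens DNA for replication, had 3197 and 2836 counts in the vector libraries. For dre-mir-15c and dre-mir-16a the host smc4, a condensin subunit, had 1718 and 1399, and a further gene that spans both on the same strand, schip1, had 1 and 4, while dre-mir-15c was above the range and dre-mir-16a within it, at 0.972 (0.518 to 1.66). The host of mir140, wwp2, a ubiquitin ligase, had 4133 and 3381. At the other end, ptprna and ptprn2, which in mammals encode proteins of neuroendocrine secretory granules and host dre-mir-153c and dre-mir-153a, had 0 counts in both libraries. Hosts at 0 counts in both were not only those of lower calls. They included col27a1a, the host of dre-mir-455-2, which was above the range at 3.01 (1.56 to 5.26), and vtrna4, around dre-mir-733, which was called higher. The host of dre-mir-456, ttc27, had 114 and 129. Host and hairpin did not always stand alike, since hoxb3a, the host of dre-mir-10c, had 1 and 0 counts while dre-mir-10c was the second entry of the neutrophil library, and ctdsp2, the host of dre-mir-26b with 70 neutrophil counts, also had 1 and 0.

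Depth set what could be called lower. With 0 neutrophil counts an entry could be called only from a whole-embryo mean of at least 575 CPM, and none of the 68 compared entries at or above that mean had 0 counts. The highest mean among entries with 0 counts was the 473 CPM of dre-mir-216a. For the 50 entries at 0 counts and most of the 55 entries with 1 to 3, a level in neutrophils far under that of whole embryo was not detectable at this depth.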

How the data were processed

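The authors deposited raw read counts per annotated miRNA hairpin for the small RNA libraries, and raw counts per gene for the mRNA libraries, with no normalization. Per the labels' protocols, total RNA (mirVana) was made into TruSeq small RNA libraries and a band was cut from a gel. The submitters' processing notes name bcl2fastq, STAR 2.5, featureCounts of Subread 1.5.1, edgeR 3.20.8 and the GRCz11 build, without saying which step used which. Counts are per hairpin and not per mature strand, and how reads shared by copies were counted is not given in the sources used here, so levels of near-identical copies are uncertain. The sequences of the mature miRNAs are not used here.

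From the counts, CPM was computed over all entries, with exact 95% Poisson intervals of the neutrophil count and a floor of 3 counts for 0. A whole-embryo mean under 3 counts per library was set to that limit. Log2 ratios used CPM + 1. No test was run, as the sorted group has 1 library; intervals and limits cover counting error only, since reads are not stated to carry molecular identifiers. The rule, the members and the 21 lists were chosen with earlier results of these data known. The entries named are mir223, the miR-142 and miR-146 entries, and the 10 highest ratios among higher calls with at least 10 counts. All 9 lower calls, the 10 most abundant neutrophil and 5 most abundant whole-embryo entries, and list members are named too. The entries dre-mir-1388, dre-mir-456 and dre-mir-462, called outside these, the mRNA marker genes, the entries nearest to the limit, and the count ratios within clusters were named after their values were seen. Host genes and hairpin genes of the mRNA tables were matched by coordinates and strand. Columns left unused numbered 0. Alternatives were scaling by TMM (edgeR 4.0.16) or by median of ratios (DESeq2 1.42.0), other filters, folds and intervals, summed copies and each whole-embryo library left out. The tools were R 4.3.3, Python 3.11.15, numpy 2.4.6, pandas 2.3.3, scipy 1.17.1 and matplotlib 3.10.9.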

Additional observations from a re-analysis of the deposited data

How the results depend on the processing

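The 17 higher and 9 lower calls stayed within 1.5 times of these counts under every alternative run but 3: a 2-fold limit gave 32 and 22, an 8-fold limit gave 12 and 0, and a point ratio without an interval gave 36 and 75, the last including entries with 0 to 3 reads. TMM scaling lowered the log2 ratios by a median of 0.36 and gave 15 higher and 12 lower calls, without dre-mir-456 and dre-mir-1388. The median shift was 0.07 with median-of-ratios scaling and -0.21 with the 9 entries that are among the 5 most abundant of any library left out of the totals. The log2 ratio of dre-mir-454b, 0.19, was -0.18 under TMM. Leaving out 1 whole-embryo library gave 17 to 21 higher and 8 to 11 lower calls. Medians of lists with few reads changed sign: muscle was -0.16 under TMM, -0.46 with copies summed, -1.95 at a 50 CPM filter and -5.37 at 100 CPM, against 0.20; let-7 was -0.99 with no filter, against 1.93; liver and gut was 0.38 at both filters, against -0.42. With copies summed, 16 names were higher and 8 lower, and let-7a was not called. Alternatives added after seeing the data, at least 10 neutrophil counts and no entries in exons of other genes, gave 15 and 6, and 16 and 9. No paired analysis was possible because the sorted group has 1 library, the pair of unnumbered whole-embryo columns carries no replicate number and the result comes from no test. Depth of the neutrophil library limits all lower calls.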
